A study of Mus musculus with 8 samples.

Results

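The GABA-A receptor subunits described here are the 7 genes Gabra2, Gabra3, Gabra4 and Gabra5 (subunits α2 to α5), Gabrb1 and Gabrb2 (β1 and β2) and Gabrd (δ). They were chosen by name, all 7 were measured, and they stand among 15437 genes in the table. RNA-Seq was performed on the temporal association cortex (TeA) of male C57BL/6 mice aged 60 to 90 days, all of the genotype Arc-dVenus +/-. The transgene puts Venus, a short-lived fluorescent reporter, under the control of the promoter of Arc, so that Venus marks cells by recent activity of that promoter. The paper describes the labelled cells as excitatory neurons of several layers, so a comparison with whole tissue also differs in cell types. Fear conditioned (FC) mice received 7 pairings of a tone (10 s, 6 kHz) with a foot shock (1 s, 0.5 mA), and shock only mice received 7 foot shocks without tones. The Arc-dVenus+ libraries came from manually collected fluorescent cells, with pools of 39, 40 and 23 cells in FC and of 30 and 33 cells in shock only by their titles, whereas the protocol gives 35 to 60 cells per pool. Whole TeA of the same genotype gave 3 bulk tissue libraries, 1 after FC and 2 after shock only. All mice were sacrificed 6 h after the procedure. Bulk tissue of an untrained mouse, which the protocol also mentions, was not analysed here, so both conditions include the shock.

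GABA-A receptors are chloride channels made of 5 subunits that open when GABA binds, and they carry most of the fast inhibition in the cortex. Most receptors combine α and β subunits with a γ or a δ subunit. The α subunit largely sets the response to benzodiazepines and the place of the receptor on the cell, and the δ subunit, which in the forebrain assembles mainly with α4, makes receptors outside the synapse that respond to low, lasting levels of GABA. In adult cortex, α2 is known for the axon initial segment, α3 for deep layers, and α5 for receptors outside the synapse.

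The members lie on 5 chromosomes. In mm9, with GENCODE M1 gene models, Gabra2 spans chromosome 5 from 71352296 to 71487088, Gabra4 chromosome 5 from 71960973 to 72049547, and Gabrb1 chromosome 5 from 72091171 to 72529628. Gabra3 spans chromosome X from 69678020 to 69902187, Gabra5 chromosome 7 from 64663060 to 64765379, Gabrb2 chromosome 11 from 42233259 to 42446092, and Gabrd chromosome 4 from 154759089 to 154772221. Gabrb1 and Gabrb2 are on the plus strand and the other members on the minus strand. Gabra2, Gabra4 and Gabrb1 are neighbours in one subunit cluster, with Gabrg1 (γ1) beyond Gabra2. Gabra4 and Gabrb1 point away from each other, with 41623 bases between them. The promoters of these 3 neighbours and of Gabra3 are shown because the cluster genes differed in their profiles across the sorted pools and Gabra3 was the member higher by over 2-fold. Each window runs from 250 bases before to 50 bases after a RefSeq start (GRCm38.p6), 5′ to 3′ on the gene's strand, with each CG dinucleotide in capitals. The windows are chr5:71095800-71096099 (minus) for Gabra2, chr5:71658259-71658558 (minus) for Gabra4, chr5:71699682-71699981 (plus) for Gabrb1 and chrX:72656758-72657057 (minus) for Gabra3.
Gabra2: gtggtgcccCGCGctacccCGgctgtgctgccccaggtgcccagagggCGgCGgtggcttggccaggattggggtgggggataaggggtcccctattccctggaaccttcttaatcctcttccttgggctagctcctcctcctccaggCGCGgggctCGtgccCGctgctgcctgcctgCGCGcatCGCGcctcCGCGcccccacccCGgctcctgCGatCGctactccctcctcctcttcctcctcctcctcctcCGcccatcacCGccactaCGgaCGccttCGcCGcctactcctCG
Gabra4: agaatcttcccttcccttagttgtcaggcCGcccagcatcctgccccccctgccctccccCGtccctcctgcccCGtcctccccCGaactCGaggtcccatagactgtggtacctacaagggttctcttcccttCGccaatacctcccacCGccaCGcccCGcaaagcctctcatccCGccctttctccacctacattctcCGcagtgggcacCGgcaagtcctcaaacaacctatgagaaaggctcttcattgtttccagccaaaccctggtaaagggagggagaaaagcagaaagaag
Gabrb1: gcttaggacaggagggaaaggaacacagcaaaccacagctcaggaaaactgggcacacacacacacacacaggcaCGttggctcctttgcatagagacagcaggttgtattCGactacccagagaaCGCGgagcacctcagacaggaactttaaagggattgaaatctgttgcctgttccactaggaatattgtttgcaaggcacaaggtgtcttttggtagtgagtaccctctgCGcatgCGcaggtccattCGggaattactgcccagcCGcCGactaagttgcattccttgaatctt
Gabra3: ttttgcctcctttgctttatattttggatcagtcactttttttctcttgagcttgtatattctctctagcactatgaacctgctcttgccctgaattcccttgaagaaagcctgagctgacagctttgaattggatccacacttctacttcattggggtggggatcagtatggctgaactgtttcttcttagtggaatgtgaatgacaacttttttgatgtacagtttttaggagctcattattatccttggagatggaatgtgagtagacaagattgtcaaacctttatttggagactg

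The windows differed in their CG content. The Gabra2 window held 25 CG dinucleotides, that of Gabra4 held 12 and that of Gabrb1 held 9, whereas the Gabra3 window held 0, as did the window at its other RefSeq start. The median over 32817 mouse promoter windows of this length was 7, and 5.43% of the windows held 0. RefSeq gave 10 windows for 6 of the members, and the remaining windows held 13 (Gabra5), 11, 9 and 9 (Gabrb2) and, at another start of Gabrb1, 25. That start of Gabrb1 lies inside the Gabra4 gene on the opposite strand, so without strand information reads there cannot be told apart. Both strands were searched for letters of activity-regulated factors, and none of the member windows held any of them. The letters were TGACGTCA (cyclic AMP response element, in 1.79% of all windows), GCGTGGGCG (Egr, 0.612%) and TGAGTCA (AP-1, 5.21%). The TATA box letters TATAAA (13.6% of all windows) were found in windows of Gabra3 and Gabrb2. The GC box GGGCGG (35.6%) was found in windows of Gabra2, Gabra4 and Gabrb2. In the printed Gabra3 window the match was the reverse complement TTTATA, near the end farthest from the start. The search did not use the position of a match. The windows of Gabrd were not analysed here.

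Libraries held 10223586 to 24151755 counts from Arc-dVenus+ cells and 7110598 to 9846374 from bulk tissue. Genes at 0 numbered 1500 to 2631 per pool of Arc-dVenus+ cells and 108 to 131 per bulk library. Each member had at least 80 counts in every library, where Poisson counting error is 11.2%, which does not include amplification. The pools were checked against cell type markers. Of 10 markers of inhibitory neurons, 10 were lower in Arc-dVenus+ cells, and their summed level was 34.1 to 43.4 CPM (the deposited level, a gene's counts scaled to its library's depth), against 754.6 to 766.7 CPM in bulk tissue, with Dlx1 at 0 in all pools. Markers of astrocytes (5 of 6 lower, sums 845.1 to 1437 against 6467 to 7680 CPM), oligodendrocytes (4 of 4 tested, 26.0 to 73.6 against 324.0 to 350.0), their precursors (2 of 4, 3.17 to 13.2 against 103.9 to 115.7) and endothelial and mural cells (4 of 5, 5.48 to 20.9 against 180.6 to 190.2) fell, with Mag, Olig2 and Cldn5 at 0 in all pools. Of microglial markers, 3 of 6 tested were lower and C1qa was at 0, but their sum varied between 0.33 and 66.2 CPM in the pools (204.0 to 261.7 in bulk tissue), with counts mainly in the FC pool of 23 cells and the shock only pool of 33 cells. Of 7 excitatory markers 4 were higher and 1 lower, with a median log2 fold change of 0.73. Their summed levels were 6083 to 7435 CPM in Arc-dVenus+ cells and 7785 to 8654 CPM in bulk tissue. In bulk samples, fewer cells of a type and less RNA per cell cannot be told apart.

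The first comparison asked how the subunit transcripts of Arc-dVenus+ neurons stand against whole TeA tissue. Gabra3, Gabrb2 and Gabra4 were higher in Arc-dVenus+ cells and none of the 7 members was lower. With edgeR's quasi-likelihood test and an adjusted p under 0.05, 3 of 7 members were higher, where 6.17% of the 12493 tested genes were, and 6.85% of genes were lower. Of these 3, Gabra3 alone also exceeded 2-fold, and 3.13% of tested genes passed both rules in that direction. The median log2 fold change of the members was 0.90, against 0.10 over all tested genes. That median of all genes shifted to -0.16 with library size scaling, so fold changes in that setting are read relative to it. With voom it was -0.21, but this was not a shift common to all genes. The log2 fold changes of Gabra3 (1.15) and Gabrb2 (0.80) stayed with voom, while those of the other members were lower than in the main fit.

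**Figure D1:**
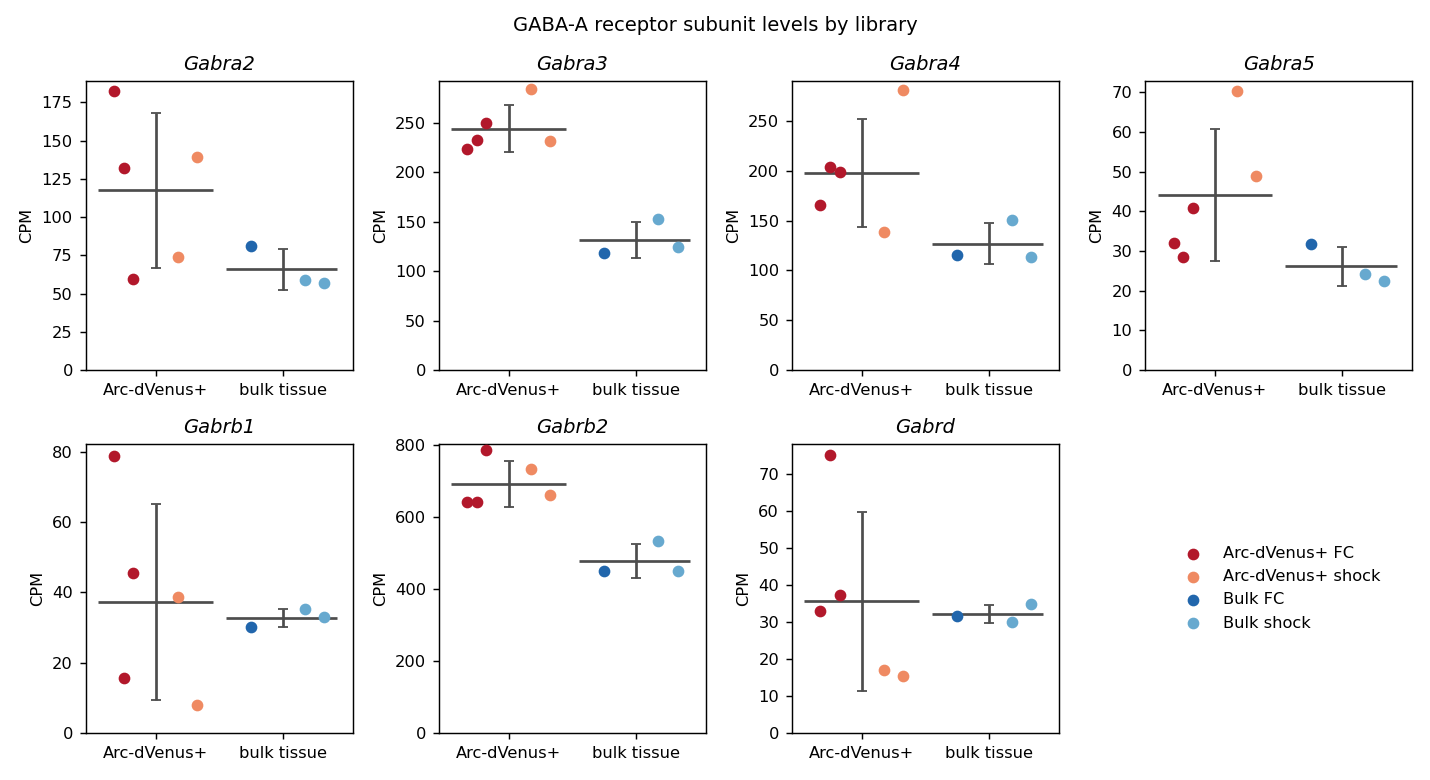
CPM of each GABA-A receptor subunit in each library, with Arc-dVenus+ pools on the left (FC in dark red, shock only in orange) and bulk tissue on the right (FC in dark blue, shock only in light blue). Horizontal lines are means and bars are SD (n = 5 and 3). All pools lie above all bulk libraries for Gabra3 and Gabrb2, and the pools of Gabrb1 spread between 7.83 and 78.8 CPM around a narrow bulk range.

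Among the α subunits, Gabra3 had 223.5, 232.2 and 250.0 CPM in the FC pools of 39, 40 and 23 cells and 283.7 and 231.4 CPM in the shock only pools of 30 and 33 cells, against 118.4 CPM in FC and 152.3 and 124.6 CPM in shock only bulk tissue. Every pool was above every bulk library. The mean was 244.2 ± 24.1 CPM in Arc-dVenus+ cells and 131.8 ± 18.1 CPM in bulk tissue (SD, n = 5 and 3), a log2 fold change of 1.15 (SE 0.18, adjusted p = 0.00187) or 2.22-fold. When each library was left out in turn the log2 fold change stayed between 1.07 and 1.26 and the adjusted p between 0.00167 and 0.0219. With library size in place of TMM it was 0.88 (adjusted p = 0.00642), a setting that lowered the median of all genes by about the same amount.

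Gabra4, the usual partner of δ, had 165.5, 204.1 and 199.1 CPM in the FC pools and 138.1 and 281.2 CPM in the shock only pools, against 116.0 CPM in FC and 151.0 and 113.8 CPM in shock only bulk tissue. The shock only pool of 30 cells fell within the bulk range, so the groups overlapped. This gave a log2 fold change of 0.90 (SE 0.25, adjusted p = 0.0374). The call was lost in 5 of 8 fits that left out a library, namely the FC pool of 40 or of 23 cells or any 1 bulk library (adjusted p 0.0128 to 0.182 over the 8), and it was lost with library size scaling (0.142) and voom (0.0939).

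Gabra2, of the axon initial segment, had 182.4, 132.3 and 59.4 CPM in the FC pools and 74.1 and 139.5 CPM in the shock only pools, against 81.2 CPM in FC and 59.2 and 57.2 CPM in shock only bulk tissue. Of the pools, 3 were above all bulk libraries and 2 were within their range. The log2 fold change of 1.08 (SE 0.36) did not pass the test (adjusted p = 0.079). It passed when the FC pool of 23 cells or the shock only pool of 30 cells, the 2 low pools, was left out, and with DESeq2 (adjusted p = 0.0133) and the exact test of edgeR (0.0380), so the call depended on the method.

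Gabra5, found outside the synapse, had 32.0, 28.5 and 40.8 CPM in the FC pools and 70.3 and 48.9 CPM in the shock only pools, against 31.8 CPM in FC and 24.2 and 22.4 CPM in shock only bulk tissue. Only the FC pool of 40 cells lay below a bulk library. Its log2 fold change was 1.03 (SE 0.39, adjusted p = 0.127), and the call was made with DESeq2 alone among the tests (adjusted p = 0.0482).

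Of the β subunits, which form part of the GABA binding site, Gabrb2 had 642.3, 641.6 and 785.3 CPM in the FC pools and 732.8 and 659.8 CPM in the shock only pools, against 448.3 CPM in FC and 532.1 and 450.3 CPM in shock only bulk tissue. As for Gabra3, no pool reached down to a bulk library. The mean was 692.4 ± 64.0 CPM in Arc-dVenus+ cells and 476.9 ± 47.8 CPM in bulk tissue (SD, n = 5 and 3). The log2 fold change was 0.80 (SE 0.14, adjusted p = 0.00368), or 1.74-fold, and leaving out each library gave 0.75 to 0.88 (adjusted p 0.00352 to 0.0367). Gabra3 and Gabrb2 were the 2 members whose libraries did not overlap, as those of 5.97% of tested genes did not with Arc-dVenus+ above. No member had all pools below all bulk libraries, where 21.4% of tested genes did.

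Gabrb1 had 78.8, 15.5 and 45.6 CPM in the FC pools and 38.8 and 7.83 CPM in the shock only pools, against 30.1 CPM in FC and 35.2 and 32.9 CPM in shock only bulk tissue. Of the pools, 3 were above the bulk libraries and 2 below. Its log2 fold change was 0.43 (SE 0.62, adjusted p = 0.75), and it was -0.0023 without the FC pool of 39 cells.

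Gabrd, the δ subunit of receptors outside the synapse, had 33.1, 75.2 and 37.3 CPM in the FC pools and 16.98 and 15.5 CPM in the shock only pools, against 31.7 CPM in FC and 30.2 and 35.0 CPM in shock only bulk tissue. The FC pools of 40 and 23 cells were above the narrow bulk range, the shock only pools were below it and the remaining FC pool was within it. The log2 fold change over bulk tissue was 0.39 (SE 0.51, adjusted p = 0.725), and without the FC pool of 40 cells it was -0.08.

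**Figure D2:**
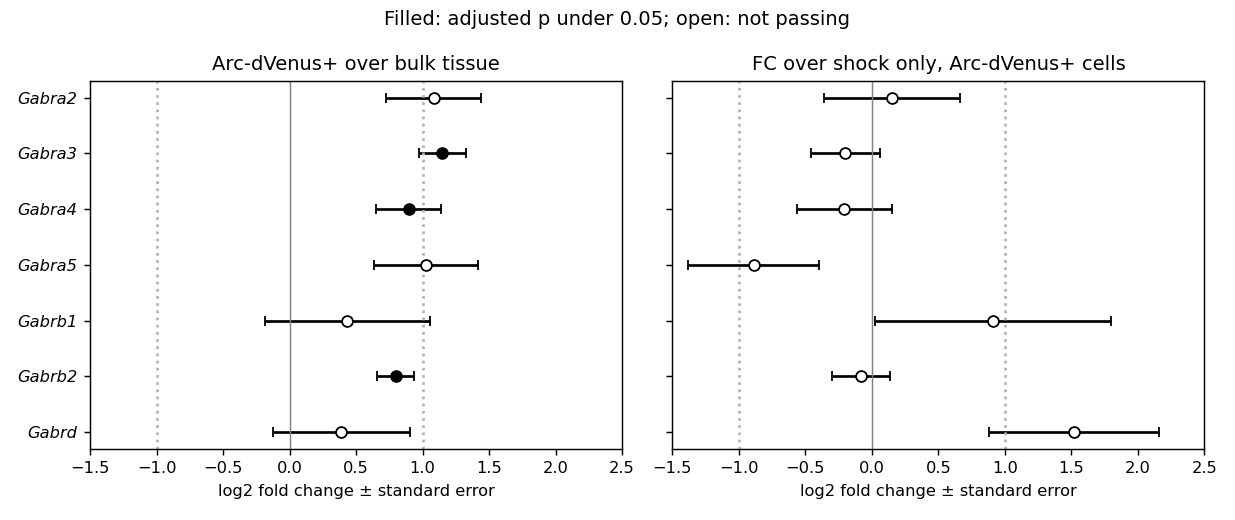
Log2 fold change (x axis) of each subunit, with its standard error, for Arc-dVenus+ over bulk tissue (left) and for FC over shock only within Arc-dVenus+ cells (right). Filled points passed an adjusted p under 0.05, which Gabra3, Gabra4 and Gabrb2 did on the left and no member did on the right, and dotted lines mark 2-fold.

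The 2 pools with microglial counts were left out together, a choice made after seeing the data. On the log2 scale Gabra3 was then higher by 1.16 (adjusted p = 0.00578), Gabrb2 by 0.75 (0.00976) and Gabra2 by 1.21 (0.0407), while Gabra4 no longer passed (0.66, adjusted p = 0.0635). Levels were also set against Slc17a7, which loads glutamate into synaptic vesicles, and which was itself higher (log2 fold change 1.06, adjusted p = 0.00111). The ratio of Gabra3 to Slc17a7 was 0.287 ± 0.053 in Arc-dVenus+ cells and 0.268 ± 0.055 in bulk tissue, and that of Gabrb2 was 0.808 ± 0.105 and 0.967 ± 0.164 (SD, n = 5 and 3). On this scale the libraries of both sample types overlapped for all 7 members. Slc17a7 is only 1 of the 7 excitatory markers, of which 4 were higher and 1 lower, with a median log2 fold change of 0.73. Their sum, which weighs abundant genes most, was nevertheless lower in the pools (6083 to 7435 against 7785 to 8654 CPM). Ratios to the other markers were not taken. The part that the loss of inhibitory and glial markers had in the higher CPM was not tested.

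The members differed in how far the sorted pools spread. The SD of log2(CPM + 1) over the 5 pools was 0.130 for Gabrb2 and 0.137 for Gabra3, and 1.76% and 2.01% of the 7113 genes with a mean of at least 20 CPM had an SD as small. The median gene had an SD of 0.541 in Arc-dVenus+ cells and of 0.130 in bulk tissue, so the SD of these 2 subunits in the pools was close to that of the median gene in tissue. Their own SD in bulk tissue was 0.141 for Gabrb2 and 0.191 for Gabra3, above that in the pools. At the other end stood Gabrb1, with an SD of 1.27 in the pools and 0.112 in bulk tissue, and Gabrd, with 0.901 and 0.106. Of the same genes, 93.3% and 80.8% had an SD as small as or smaller than these in the pools. The highest pool exceeded the lowest by 10.1-fold for Gabrb1 and 4.86-fold for Gabrd, against 1.17-fold and 1.16-fold in bulk tissue. Gabra4 (0.381), Gabra5 (0.505) and Gabra2 (0.670) lay between. Gabrb2 and Gabra3 also had the highest mean levels of the members in the pools (692.4 and 244.2 CPM). Gabrd and Gabrb1 had the lowest (35.6 and 37.3 CPM). The 7113 genes were not matched for level, and the part of level in the spread was not tested.

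**Figure D3:**
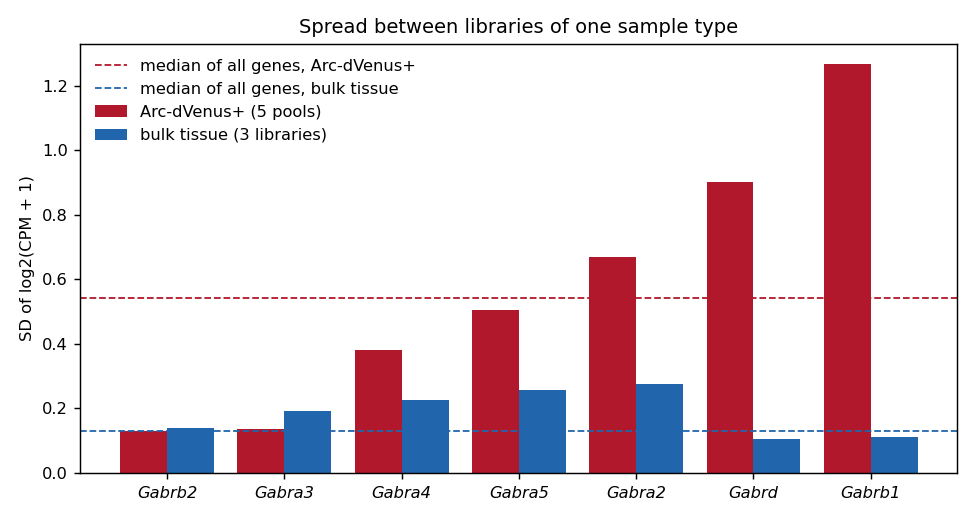
SD of log2(CPM + 1) between libraries for each subunit, over 5 Arc-dVenus+ pools (red bars) and 3 bulk tissue libraries (blue bars), ordered by the SD in the pools. Dashed lines are the medians of 7113 genes, 0.541 and 0.130, and the red bars of Gabrb2 and Gabra3 are close to the blue line.

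The 3 neighbours of the chromosome 5 cluster did not rank the pools alike, nor did they rank the bulk libraries alike. In bulk tissue Gabra2 was highest after FC (81.2 CPM), and Gabra4 (151.0 CPM) and Gabrb1 (35.2 CPM) were highest in 1 shock only library. The FC pool of 39 cells had the highest Gabra2 and the highest Gabrb1 of the 5 pools, while the shock only pool of 33 cells had the highest Gabra4 and the lowest Gabrb1. The ratio of Gabrb1 to Gabra4, per kb of transcript, was 0.635, 0.102 and 0.306 in the FC pools and 0.375 and 0.037 in the shock only pools, against 0.346 in FC and 0.312 and 0.386 in shock only bulk tissue. The ratio spread over a wider range in the pools than in tissue.

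Levels of different subunits were compared per kb of their longest transcript. The deposited counts are of 1 transcript variant per gene, which may not be that transcript. In Arc-dVenus+ cells the order was Gabrb2 (90.3 ± 8.4 CPM per kb), Gabra3 (66.7 ± 6.6), Gabra2 (49.1 ± 21.1), Gabra4 (47.9 ± 13.1), Gabra5 (16.6 ± 6.3), Gabrd (13.2 ± 8.9) and Gabrb1 (12.1 ± 9.1). In bulk tissue it was Gabrb2 (62.2 ± 6.2), Gabra3 (36.0 ± 4.9), Gabra4 (30.8 ± 5.1), Gabra2 (27.5 ± 5.6), Gabrd (11.9 ± 0.92), Gabrb1 (10.6 ± 0.84) and Gabra5 (9.84 ± 1.89). In both, Gabra2 and Gabra4 lay within each other's SD, and the libraries of Gabra5, Gabrd and Gabrb1 overlapped. Gabra3 was above Gabra2, the next in Arc-dVenus+ cells, by less than the SD of Gabra2, and above Gabra4, the next in bulk tissue, by slightly more than the SD of either and in each bulk library. Gabrb2 stood above Gabra3 beyond the SD of either in both sample types. With the union of exons as length, Gabrb2 was at 69.8 in Arc-dVenus+ cells and 48.1 in bulk tissue, still first in both. With its longest coding transcript, a choice made after seeing the data, Gabrd was at 18.5 in Arc-dVenus+ cells and 16.8 in bulk tissue, above Gabra5.

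Among the 4 α members, Gabra3 made up 37.5 ± 6.9% of the summed CPM per kb in Arc-dVenus+ cells and 34.6 ± 3.6% in bulk tissue (SD, n = 5 and 3). The share of Gabra2 was 26.7 ± 9.9% and 26.5 ± 5.0%, that of Gabra4 was 26.5 ± 5.7% and 29.5 ± 3.1%, and that of Gabra5 was 9.36 ± 3.91% and 9.45 ± 1.63%. Differences in the mean shares were smaller than the SD between pools. The pools themselves ranged between 15.8% and 40.2% for Gabra2. The ratio of Gabrd to its partner Gabra4, per kb, was 0.304, 0.561 and 0.286 in the FC pools and 0.187 and 0.084 in the shock only pools, against 0.416 in FC and 0.304 and 0.469 in shock only bulk tissue, and the sample types overlapped.

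**Figure D4:**
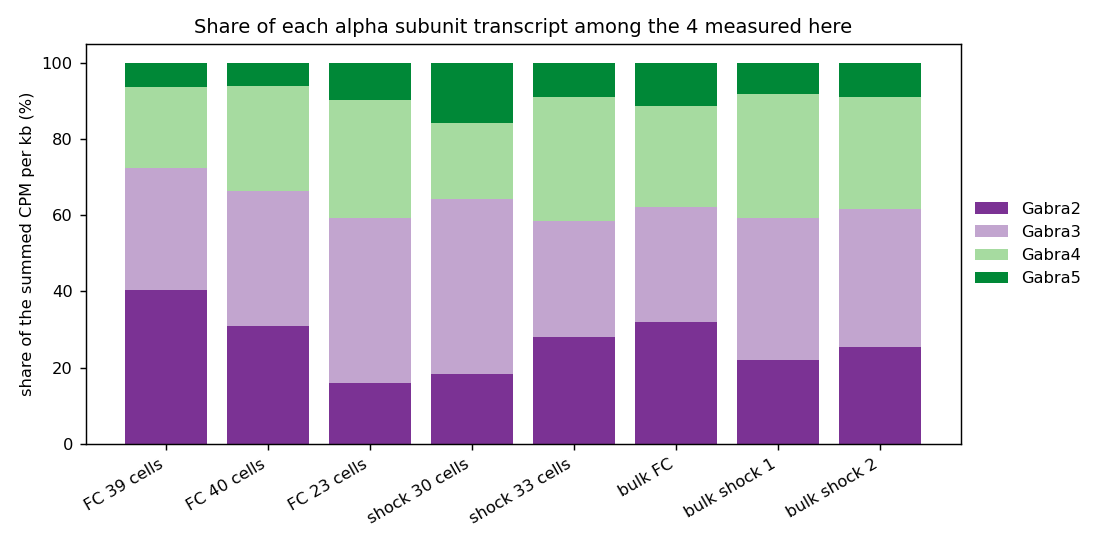
Share (%) of each α subunit in the summed CPM per kb of Gabra2, Gabra3, Gabra4 and Gabra5, with 1 bar per library, Arc-dVenus+ pools on the left and bulk tissue on the right. Gabra2 ranges between 15.8% and 40.2% across the pools.

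The next comparison asked whether pairing the tone with the shock left a difference in Arc-dVenus+ cells, with 3 FC and 2 shock only pools. No member passed the adjusted test, and neither did any of the 12493 genes (0%), while 793 genes (6.35%) had an unadjusted p under 0.05. DESeq2 called 98 genes higher and 49 lower, the exact test of edgeR 3 and 4, and voom 0, none of them a member in any of these tests. Gabrd was higher in all FC pools (33.1, 75.2 and 37.3 CPM) than in both shock only pools (16.98 and 15.5 CPM), with a mean of 48.5 ± 23.2 CPM in FC and 16.2 ± 1.1 CPM in shock only (SD, n = 3 and 2). The log2 fold change was 1.52 (SE 0.64, edgeR unadjusted p = 0.0434, adjusted p = 0.773). Gabra5 lay the other way, with 33.8 ± 6.3 CPM in FC and 59.6 ± 15.1 CPM in shock only (SD, n = 3 and 2) and a log2 fold change of -0.89 (SE 0.49, adjusted p = 0.806). These were the 2 of 7 members whose FC and shock only pools did not overlap, where 21.2% of all tested genes did not, so their number is near that background. When each pool was left out in turn the log2 fold change of Gabrd was 1.04 to 1.76 and that of Gabra5 -1.13 to -0.59.

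For Gabra3 the log2 fold change of FC over shock only was -0.20 (SE 0.26), and for Gabrb2 it was -0.08 (SE 0.22), the 2 narrowest errors among the members. It was 0.15 (SE 0.51) for Gabra2, -0.21 (SE 0.36) for Gabra4 and 0.91 (SE 0.89) for Gabrb1. Adjusted p was 0.891 to 0.979 for these 5, which does not show that the conditions were alike.

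In a fit of all 4 groups, the interaction asked whether the difference between Arc-dVenus+ cells and bulk tissue itself differed by condition. It was 1.59 (SE 0.87) for Gabrd and -1.31 (SE 0.68) for Gabra5 on the log2 scale, with adjusted p = 1.0 for every member. The fit called 0 genes, with 308 (2.47%) at an unadjusted p under 0.05. All FC pools were above the FC bulk library for Gabrd and both shock only pools were below the shock only bulk libraries, but FC bulk tissue was a single library.

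Among the other GABA-A subunit genes, 7 of 12 listed were measured. With the adjusted p alone 2 of these were higher and none lower, and neither of those 2 exceeded 2-fold. The summed level of the 7 was 1579 to 2001 CPM in Arc-dVenus+ cells and 1178 to 1271 CPM in bulk tissue. The 4 described next are among the 5 that did not pass, hold a small share of that sum and do not stand for the list. Gabrg1, the neighbour of Gabra2, had 6.35, 0.90 and 1.00 CPM in the FC pools and 24.1 and 23.9 CPM in the shock only pools, against 26.5 CPM in FC and 26.5 and 17.6 CPM in shock only bulk tissue. The FC pools were below the shock only pools (log2 fold change -3.21, SE 1.15), without passing the adjusted test (adjusted p = 0.773). Gabrg3 (γ3) had 3.82 to 28.8 CPM in the pools and 14.2 to 18.9 CPM in bulk tissue. Gabre (ε) had at most 4.47 CPM in the FC pools and no count in the shock only pools, against 4.67 to 10.4 CPM in bulk tissue. Gabrq (θ) had 1.63 CPM in the FC pool of 23 cells, 41.0 CPM in the 33-cell shock only pool and no count in the other pools, against at most 0.81 CPM in bulk tissue.

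Of 22 listed genes that anchor and move GABA-A receptors, 6 were higher by the adjusted p, 1 was lower and 15 did not pass, with a median log2 fold change of 0.40. Slitrk3, a postsynaptic adhesion protein of inhibitory synapses, was higher by 1.46 on the log2 scale (adjusted p = 0.00794), and so was Lhfpl4, which brings receptors to inhibitory synapses (1.13, adjusted p = 0.00667). Nsf, an ATPase of membrane fusion (0.83, adjusted p = 0.00304), and Ubqln1, which stabilizes receptor subunits (0.78, adjusted p = 0.0203), also rose. Trak2, a motor adaptor, fell by 0.79 on the log2 scale (adjusted p = 0.0284).

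Of 6 genes of the GABA-B receptor, a G protein coupled receptor for GABA, 1 was higher and 1 lower. Gabbr2 had a mean of 464.6 ± 36.7 CPM in Arc-dVenus+ cells and 293.2 ± 24.1 CPM in bulk tissue (SD, n = 5 and 3; log2 fold change 0.92, adjusted p = 0.00171), whereas its partner subunit Gabbr1 did not pass (0.45, adjusted p = 0.100). Kctd12b, of a family of auxiliary subunits, fell by 3.40 on the log2 scale (adjusted p = 0.0171). Of 9 tested genes of chloride balance 2 were higher. Slc12a5, the neuronal exporter that keeps chloride low, was higher by 0.57 on the log2 scale (adjusted p = 0.0259) and Wnk1, a kinase that regulates such transporters, by 0.46 (adjusted p = 0.0410). With library size scaling Slc12a5 was at 0.31 (adjusted p = 0.231), Wnk1 at 0.20 (0.444) and Ubqln1 at 0.51 (0.120), and none of the 3 passed. Wnk1 was also lost with the exact test of edgeR (0.065) and with condition as a covariate (0.0738), as Trak2 was with the covariate (0.0532). Leaving out any 1 bulk library ended the calls of Slc12a5 (adjusted p up to 0.135), Wnk1 (0.224), Ubqln1 (0.126), Trak2 (0.135) and Kctd12b (0.0847). That of Trak2 was also lost without the FC pool of 39 cells (0.0541), that of Wnk1 without the FC pool of 39 (0.0660) or 40 cells (0.0603), that of Lhfpl4 without 1 of the shock only bulk libraries (0.0522) and that of Slitrk3 without the FC bulk library (0.0588).

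Genes that make, load and clear GABA went the other way. Of 10 listed, 8 were lower by more than 2-fold and none was higher, with a median log2 fold change of -3.57. Gad1, which makes GABA, had 8 counts over the 5 pools (0 to 0.30 CPM), against 85.8 to 102.0 CPM in bulk tissue, while Gad2, its second form, was still at 32.1 to 40.6 CPM in the pools and 385.8 to 389.6 CPM in bulk tissue. Slc32a1, the vesicular GABA transporter, had 2 counts in the pools, and Slc6a13, a GABA transporter, had none, which allows up to 0.124 to 0.293 CPM in a pool (3 counts, counting error only), against 6.61 to 10.6 CPM in bulk tissue. Glul, the glutamine synthetase of astrocytes, fell by 3.95 on the log2 scale (adjusted p = 1.78e-06). Of 8 genes of neurosteroid synthesis and receptor ligands 4 were tested and 1, Dbi, which encodes a peptide that binds the benzodiazepine site, was lower (fell by 1.86 on the log2 scale, adjusted p = 0.0129, and up to 0.0758 without any 1 bulk library, where the call was lost).

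Finally, the genes whose profile over the 8 libraries was most like that of each member were sought among 7106 genes of at least 20 CPM, by the root mean square difference of centred log2(CPM + 1). The nearest was Gucy1a3 for Gabrb2 (0.074), Ndufv2 for Gabra4 (0.096), Mllt11 for Gabra3 (0.099), Jarid2 for Gabrd (0.104), Atp5k for Gabra5 (0.138), Usp16 for Gabra2 (0.206) and Msra for Gabrb1 (0.237). None of these nearest genes was a GABA-A subunit, but the 7 members had been left out of the search. Whether the members resemble each other was therefore not tested.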

How the data were processed

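Amplification used the Ovation System V2 kit. Reads were mapped by the authors to mm9 (RUM aligner) and the deposited counts hold uniquely aligned reads of 1 transcript variant per gene. The deposited CPM are the counts divided by library totals (checked to within 0.0005 CPM). The authors used edgeR, which the submitters' processing notes name with mm9. Whether counting used strand is not given in the sources used here. Other sheets, which hold the authors' gene lists and comparisons (p-values and folds), were not used.

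Counts were analysed in R 4.3.3 with edgeR 4.0.16 (quasi-likelihood test, TMM factors 0.90 to 0.97 in Arc-dVenus+ and 1.10 to 1.13 in bulk tissue libraries) over 12493 genes with at least 20 CPM in total, with Benjamini-Hochberg adjustment over all of them. Calls required an adjusted p under 0.05, alone or with over 2-fold. The standard error was the size of the log2 fold change divided by the square root of F. Alternatives used limma 3.58.1 (voom), DESeq2 1.42.0, other scalings and filters, and left-out libraries. Python 3.11.15, pandas 2.3.3, numpy 2.4.6 and matplotlib 3.10.9 were used, and the tests were run on simulated data first. By the study's methods each library came from its own mouse, and condition is unbalanced between sample types. Lengths and positions come from GENCODE M1 and promoter windows from RefSeq.

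The members and lists were chosen with earlier results of these data known. The rule for named genes was the members, all other GABA-A subunits, of each other list up to 6 genes with the lowest p, and the 2 nearest profiles of each member, of which the nearest is given. Some single genes that it covers, passing subunits among them, are not reported here.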

Additional observations from a re-analysis of the deposited data

How the results depend on the processing

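No paired analysis was possible because the titles of the sorted pools carry cell numbers and no replicate number shared between groups. Gabra3 and Gabrb2 kept an adjusted p under 0.05 in every alternative except the shock only libraries alone (2 against 2), where 0 of 12493 genes passed and 3007 had an unadjusted p under 0.05. For Arc-dVenus+ against bulk tissue, 391 genes were higher by over 2-fold, against 145 with library size scaling, 649 with DESeq2, 248 with voom, 0 with shock only libraries and 199 to 608 with 1 library left out (fewest without the FC bulk library, most without the shock only pool of 30 cells). Lower genes numbered 822, against 1577 with no filter, 1359 with filterByExpr, 0 with shock only libraries and 465 to 960 with 1 left out (fewest without the FC bulk library). Members called higher with both the adjusted p and over 2-fold numbered 1. They numbered 0 with library size scaling (which lowers all fold changes) or shock only libraries, and 3 with DESeq2. The exact test gave 2, as did the fit without the 2 pools with microglial counts. With 1 left out they numbered 1 to 3 (3 without the shock only pool of 30 cells). Members higher by adjusted p alone numbered 3, against 5 with DESeq2, 0 with shock only libraries and 2 to 4 with 1 left out. The number of all genes passing that rule, in either direction, moved as well. It was 1627 of 12493, against 2395 with DESeq2, 0 with shock only libraries and 753 to 1967 with 1 left out. For FC against shock only, where 0 genes passed, DESeq2 gave 98 higher and 49 lower genes, the exact test 3 and 4, and leaving out 1 pool 0 to 1 lower. The log2 fold change over bulk tissue changed sign with shock only libraries for Gabrb1 (-0.23), Gabrd (-0.67), Gabrg1 (0.46, main -0.79) and Gabrg3 (-0.16, main 0.11), and with condition as a covariate for Gabrd (-0.11). Gabrg3, near the median of all genes, was at -0.15 with library size scaling and -0.28 with voom, which lower that median to -0.16 and -0.21, and at -0.24 without the FC pool of 23 cells and -0.53 without both pools with microglial counts, where Gabrq, carried by 1 pool, was at -5.40 (main 4.51, voom -0.35). With 1 library left out Gabrb1 ranged from -0.0023 to 0.69, Gabrd from -0.080 to 0.66 and Gabrg3 from -0.24 to 0.39. For FC over shock only, Gabra2 ranged from -0.23 to 0.66 (-0.19 without the FC pool of 39 cells), Gabra4 from -0.63 to 0.38 (0.00063 with voom) and Gabrb2 from -0.20 to 0.0052. Per kb, Gabrb2 was at 69.8 and 48.1 CPM with the union of exons, and Gabrd in bulk tissue at 16.8 CPM on its longest coding transcript. The cause of these changes was not tested. Voom and the exact test for FC against shock only, the coding length and the fit without 2 pools were chosen after seeing the data. Read depth gave each member at least 80 counts in every library, but loss of transcripts before sequencing was not measured. A single FC bulk library and 2 shock only pools limit every comparison of conditions.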
